A study of Mus musculus with 6 samples.

Results

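The genes described here are the P4-ATPases Atp10a, Atp8a1, Atp8b4, Atp11a and Atp11b, their subunit Tmem30a, and the scramblases Xkr8 and Ano6, measured by RNA-seq in the mouse dendritic cell line DC2.4. They were taken by gene symbol from a count table of 31205 genes: the selection named 9 symbols and 8 had a row in that table. The ninth, Atp10d, which the GENCODE annotation classes as a polymorphic pseudogene in the mouse reference genome (chromosome 5, 72203329 to 72298775), was not analysed here. The study compared a PD-L1 knockout derivative of DC2.4 (3 libraries) with DC2.4 labelled Control (3 libraries), in a series on PD-L1 and ferroptosis of dendritic cells under chemotherapy. No label names a drug treatment, a knockout clone or separate cultures, so the spread between libraries of a group, and every p-value that rests on it, may be technical. The genes were chosen with their knockout-to-Control difference already known, so that difference is given for them as a description, without a p-value. Counts of them past a threshold stand beside the same share of all genes and support nothing.

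The plasma membrane has unequal leaflets, with phosphatidylserine kept on the cytoplasmic side. P4-ATPases, called flippases, use ATP to move phospholipids to that side, and most of them need the subunit Tmem30a (CDC50A) to leave the endoplasmic reticulum. Scramblases let lipids move both ways and expose phosphatidylserine: Xkr8 is switched on by caspases in dying cells and Ano6 (TMEM16F) by calcium. Exposed phosphatidylserine is read by phagocytes, dendritic cells among them, as a signal to engulf the cell. Not every gene of the set carries phosphatidylserine: human ATP10A is known for moving phosphatidylcholine.

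All 5 P4-ATPases carried the motif of P-type ATPases whose aspartate takes the phosphate of ATP during each transport cycle. The codons of that motif, read from the GENCODE transcripts (mm10, transcript strand), are shown because they mark these genes as one enzyme family and show how far their reads can be told apart. Capitals mark the 15 bases that code for the motif.
Atp10a: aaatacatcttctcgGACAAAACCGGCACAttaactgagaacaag
Atp8b4: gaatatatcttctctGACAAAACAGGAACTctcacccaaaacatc
Atp8a1: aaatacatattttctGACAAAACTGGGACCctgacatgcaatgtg
Atp11a: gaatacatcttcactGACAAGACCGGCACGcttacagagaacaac
Atp11b: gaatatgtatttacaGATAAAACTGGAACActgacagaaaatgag
These windows lie at chr7:58788347-58788391 (plus strand) for Atp10a, chr2:126397628-126397672 (minus) for Atp8b4, chr5:67761155-67761199 (minus) for Atp8a1, chr8:12831088-12831132 (plus) for Atp11a and chr3:35809360-35809404 (plus) for Atp11b, each within 1 exon. Of the 45 bases, Atp10a shared 36 with Atp11a, 32 with Atp8b4, 30 with Atp8a1 and 29 with Atp11b. Even at this motif the genes therefore differed in sequence. Of 5537 stretches of 50 bases in the Atp10a transcripts, 0 occurred in a transcript of another gene, and the same held for Atp8b4 (0 of 6655) and Atp11b (0 of 9397). The shares were 0.442% for Atp8a1, 2.75% for Atp11a, 0.266% for Tmem30a, 0.804% for Xkr8 and 2.74% for Ano6. Genes on the opposite strand that share exon bases with Atp8a1, Atp11a and Ano6 and have a row in the count table had few reads. The most were those of A130051J06Rik beside Ano6 (7 to 19 counts in knockout libraries and 21 to 37 in Control libraries). Gm49172, which shares 122 exon bases with Ano6, has no row, so its reads are not known.

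The knockout libraries 1, 2 and 3 held 13501776, 16323812 and 21133688 counts and the Control libraries 10918498, 15909256 and 23250065. Levels are CPM, read counts scaled to a common library size with TMM factors, and folds are log2 changes of knockout over Control from edgeR. The targeted gene Cd274, which encodes PD-L1, was not lower in knockout (7.08 ± 1.44 CPM, against 5.78 ± 1.09 in Control, SD, n = 3; edgeR adjusted p = 0.417), so its transcript level does not check the labels. Myeloid genes such as Ptprc, Cd68 and Csf1r were present in all 6 libraries (15 markers summed to 1339 to 1676 CPM in knockout and 1556 to 1772 CPM in Control), and so were Irf8 (462 to 1086 counts over the 6 libraries), Itgax (386 to 1288) and Zbtb46 (65 to 218), which dendritic cells express. Of the 15, H2-Ab1, Flt3 and Batf3 had at most 4 counts in any library. The sums hide differences of single markers. Lyz2 had 13.2 to 20.8 CPM in knockout and 93.2 to 140 in Control, and Csf1r 126 to 165 in knockout and 199 to 282 in Control. Ptprc, Itgam and Zbtb46 were also lower in every knockout library than in any Control library, and Cd80 and Cd86 were higher. Groups did not overlap for 43% of all tested genes. Markers of lymphocytes, epithelium and endothelium summed to at most 16 counts in any library. Stromal markers (7 genes, Dcn and Lum at 0 throughout) summed to 0, 3 and 0 counts in knockout libraries 1, 2 and 3 and to 6, 3656 and 9 in Control libraries 1, 2 and 3. Nearly all of the 3656 were Col1a1 (2235) and Fn1 (1382). Knockout library 1 stood apart from knockout libraries 2 and 3 on the second principal component (42.2, against -11.5 and -17.6). The part of either library in the results below was not tested, and values without them are given beside each of the 8 genes.

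Atp10a had no read in the knockout cells. It had 0, 0 and 0 counts in knockout libraries 1, 2 and 3, and 75, 180 and 249 counts (6.71, 10.7 and 9.95 CPM) in Control libraries 1, 2 and 3. Against a floor of 3 counts over the knockout group, the Control mean of 9.11 ± 2.11 CPM (SD, n = 3) makes Atp10a at least 146-fold lower in knockout (a log2 bound of -7.19). The log2 bound was -6.74, -6.66 and -6.41 without knockout libraries 1, 2 and 3, and -7.37, -7.06 and -7.12 without Control libraries 1, 2 and 3. It covers counting error only. In bulk RNA, fewer cells that express a gene and less RNA per cell cannot be told apart. The gene lies on chromosome 7, 58656166 to 58829420 (ENSMUSG00000025324.8, plus strand), and its annotated overlaps share no exon base with it.

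Atp8b4, a P4-ATPase of the same branch as Atp8b2, kept 13.1% of its Control level. It had 6.04, 4.84 and 5.07 CPM in knockout libraries 1, 2 and 3 and 36.1, 44.1 and 41.9 CPM in Control libraries 1, 2 and 3. The groups were far apart, with knockout libraries at 5.32 ± 0.64 CPM and Control libraries at 40.7 ± 4.15 CPM (SD, n = 3 each). Its log2 fold change was -2.94 (SE 0.16, 95% interval -3.31 to -2.57), -2.88 without Control library 2 and -3.04 without knockout library 1. Atp8b4 lies on chromosome 2, 126320973 to 126500674 (ENSMUSG00000060131.11, minus strand).

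The promoters of the 2 genes with the largest differences are shown, as RefSeq gives them (GRCm38.p6, 250 bases before to 50 after the annotated start), with each CG dinucleotide in capitals. The Atp10a window is chr7:58657952-58658251 on the plus strand and the Atp8b4 window chr2:126491504-126491803 on the minus strand.
Atp10a: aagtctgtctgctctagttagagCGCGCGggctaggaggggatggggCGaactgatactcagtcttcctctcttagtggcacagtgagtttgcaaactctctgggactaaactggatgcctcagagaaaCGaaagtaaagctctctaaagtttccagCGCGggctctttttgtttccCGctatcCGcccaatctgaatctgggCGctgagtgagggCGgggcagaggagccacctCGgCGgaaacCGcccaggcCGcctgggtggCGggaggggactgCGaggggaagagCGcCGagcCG
Atp8b4: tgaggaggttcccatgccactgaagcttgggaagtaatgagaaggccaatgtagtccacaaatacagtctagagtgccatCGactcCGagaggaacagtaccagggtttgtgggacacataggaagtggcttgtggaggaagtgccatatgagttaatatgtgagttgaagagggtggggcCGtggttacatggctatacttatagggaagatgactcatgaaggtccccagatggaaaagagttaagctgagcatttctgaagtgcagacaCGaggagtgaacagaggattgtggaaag
Atp10a had 20 CG dinucleotides in 300 bases, more than 73.5% of the 32851 promoters of that length, and Atp8b4 had 4, more than 31.4% of them. The promoters of Atp8a1, Atp11a, Atp11b, Tmem30a and Ano6 had 31, 39, 33, 26 and 29. Atp8b4 and Atp10a therefore had the lowest CG counts of the 7 with a promoter in the table. The windows of these 2 genes lie wholly inside the GENCODE gene spans given above, past the GENCODE start. Those of Atp8a1, Atp11a, Atp11b, Tmem30a and Ano6 cross the GENCODE start. The low rank therefore holds for the RefSeq windows only, and CG was not counted at the GENCODE starts of Atp8b4 and Atp10a. The cyclic AMP response element TGACGTCA and the TATA sequence TATAAA, searched on both strands, were in 0 of the 7 windows, and in 1.79% and 13.6% of all promoters. These counts describe the letters of the windows only.

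**Figure D1:**
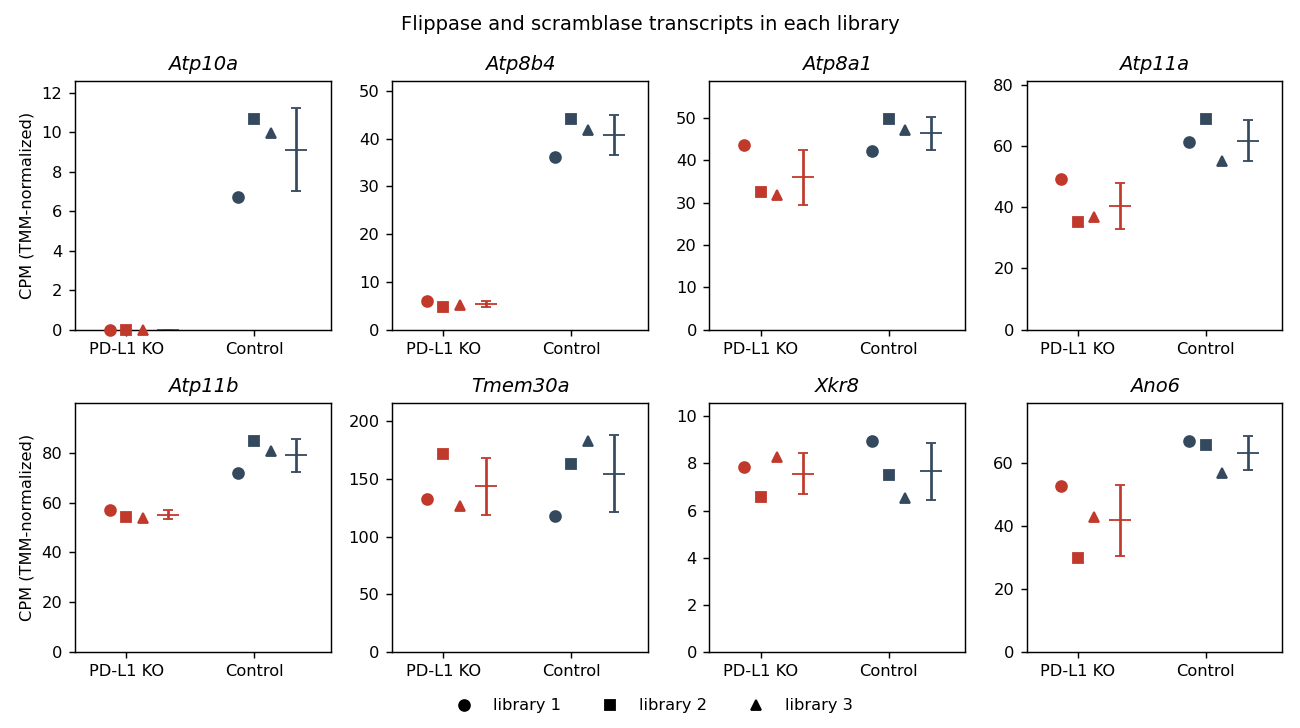
CPM (TMM-normalized) of the 8 genes in each of the 6 libraries, with PD-L1 knockout on the left and Control on the right of each panel; markers are libraries 1, 2 and 3 and the bar beside them is the mean ± SD. Atp10a is at 0 in the 3 knockout libraries and at 6.71 to 10.7 CPM in Control, Atp8b4 is at 4.84 to 6.04 CPM in knockout and at 36.1 to 44.1 in Control, and Xkr8, Tmem30a and Atp8a1 overlap between groups.

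Atp11a and Atp11b were lower to a lesser degree, at 65.4% and 69.6% of the Control level. Atp11a, a plasma membrane flippase of phosphatidylserine that caspases cut in dying cells, had 49.1, 35.2 and 36.9 CPM in knockout libraries 1, 2 and 3 and 61.3, 68.8 and 55.2 CPM in Control libraries 1, 2 and 3. Its lowest Control library was above its highest knockout library. In log2 terms this was -0.61 (SE 0.16, 95% interval -0.98 to -0.25), -0.53 without Control library 2 and -0.78 without knockout library 1. Atp11b, a flippase of recycling endosomes, had 57.1, 54.3 and 53.8 CPM in knockout libraries 1, 2 and 3 and 71.8, 84.7 and 80.7 CPM in Control libraries 1, 2 and 3. Knockout libraries lay within a narrow band (55.1 ± 1.82 CPM) below all Control libraries (79.1 ± 6.64 CPM). On the log2 scale the Atp11b difference was -0.52 (SE 0.13, 95% interval -0.80 to -0.24), -0.47 without Control library 2 and -0.56 without knockout library 1. Atp11a lies on chromosome 8, 12757014 to 12868728, and Atp11b on chromosome 3, 35754106 to 35856276.

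Atp8a1, a flippase of phosphatidylserine in endosomes and the Golgi apparatus (chromosome 5, 67618140 to 67847434), overlapped between the groups. It had 43.5, 32.6 and 31.7 CPM in knockout libraries 1, 2 and 3 and 42.1, 49.7 and 47.2 CPM in Control libraries 1, 2 and 3. Knockout library 1 lay above Control library 1, and the other 2 knockout libraries lay below all Control libraries. The log2 fold change was -0.37 (SE 0.16, 95% interval -0.72 to -0.02), -0.32 without Control library 2 and -0.53 without knockout library 1.

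Tmem30a, the shared subunit (chromosome 9, 79768943 to 79793507), had the highest level per kb of exon of the 8 genes in both groups. It had 132, 172 and 127 CPM in knockout libraries 1, 2 and 3 and 117, 163 and 183 CPM in Control libraries 1, 2 and 3. The groups overlapped, and Control library 1 was the lowest of all 6. The log2 fold change was -0.11 (SE 0.19, 95% interval -0.52 to 0.31). It was -0.07 without Control library 2 and -0.06 without knockout library 1.

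The caspase-activated scramblase Xkr8 (chromosome 4, 132724897 to 132732546) had 7.85, 6.58 and 8.26 CPM in knockout libraries 1, 2 and 3 and 8.95, 7.53 and 6.51 CPM in Control libraries 1, 2 and 3. Values of both groups covered much the same range. The log2 fold change was -0.01 (SE 0.21), and its 95% interval of -0.48 to 0.47 leaves room for a change of either sign. It was -0.02 without Control library 2 and -0.03 without knockout library 1. The calcium-activated scramblase Ano6 (chromosome 15, 95790843 to 95974751) had 52.8, 30.0 and 42.8 CPM in knockout libraries 1, 2 and 3 and 67.1, 65.7 and 57.0 CPM in Control libraries 1, 2 and 3. All knockout libraries lay below all Control libraries, with knockout library 1 nearest to them. The log2 fold change was -0.60 (SE 0.19, 95% interval -1.03 to -0.16), -0.57 without Control library 2 and -0.80 without knockout library 1.

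Of the 8 genes, 5 were lower past an edgeR adjusted p of 0.05 (Atp10a, Atp8b4, Atp11a, Atp11b and Ano6), 0 were higher and 3 were not past it; over all 11453 genes tested, 13.5% were lower (1542) and 11.9% higher (1358). With no TMM factors, only library totals, 2216 were lower and 671 higher (the median of all genes was -0.14), and the same 5 of the 8 were lower. The groups of libraries did not overlap for the same 5 genes, and for 43% of all tested genes. Nothing is read from these counts, since the genes were chosen on this difference. Among the 6 repeats with 1 library left out, Atp10a and Atp8b4 were past the threshold in 6, Atp11a and Atp11b in 2 and Ano6 in 1, and the count of lower genes ranged from 2 to 6. It was 2 without knockout library 2, knockout library 3 or Control library 2, 3 without Control library 1 or 3, and 6, now with Atp8a1, without knockout library 1.

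Over all genes, the knockout-to-Control difference varied with exon length. Tested genes with 8 kb or more of exon were lower in 34.3% of cases, with a median log2 fold change of -0.37, and genes under 2 kb in 4.33%, with a median of 0.39. Atp8a1 (14278 bp of exon), Ano6 (12269 bp), Atp11a (11150 bp) and Atp11b (9176 bp) belong to the longest class, and among these 4 the longest had the smallest difference. Atp8b4 (6660 bp) and Atp10a (5587 bp) fall between 4 and 8 kb, where the median was -0.08 and 13.4% were lower. After a trend of counts with exon length and GC content was removed per library, the log2 fold change was -0.17 for Atp11a (SE 0.11), -0.13 for Ano6 (SE 0.13), -0.34 for Atp11b (SE 0.10) and 0.11 for Atp8a1 (SE 0.11), so that Atp8a1 changed sign. Atp8b4 stayed at -2.85 (SE 0.14), Tmem30a was at -0.09 and Xkr8 at -0.04. In that fit 3 of the 8 genes were past the threshold (Atp10a, Atp8b4 and Atp11b), beside 1215 lower and 1160 higher among all genes. With the replicate number as a block added to it, 2 were (Atp10a and Atp8b4).

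**Figure D2:**
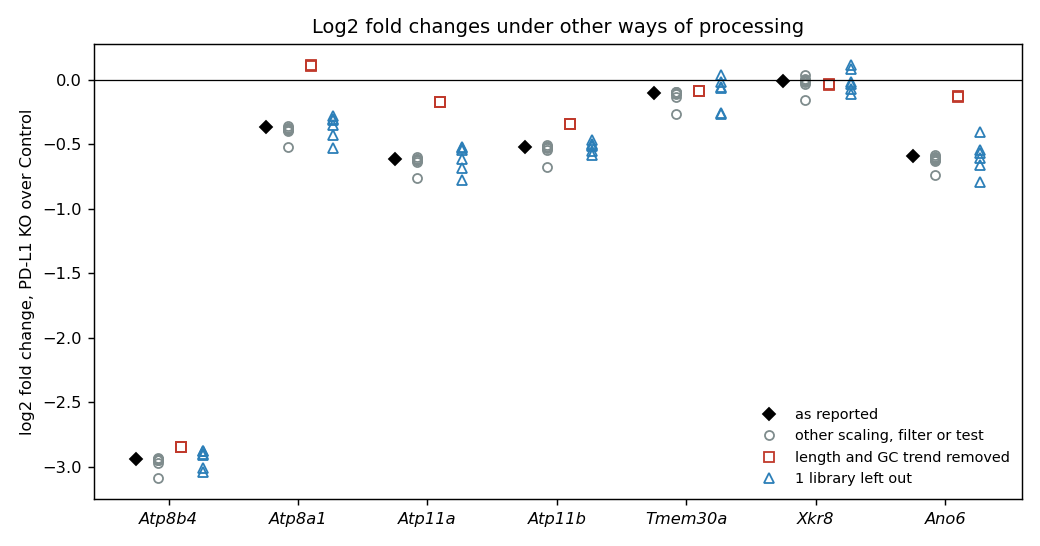
Log2 fold change of PD-L1 knockout over Control for the 7 genes with reads in both groups, as reported (black diamonds), with another scaling, filter, test or the replicate block (grey circles), with the trend with exon length and GC content removed, with and without the block (red squares), and with each of the 6 libraries left out (blue triangles). Atp8b4 stays between -3.09 and -2.85, while Atp11a reaches -0.17, Ano6 -0.13 and Atp8a1 0.11 when the length and GC trend is removed.

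Levels of different genes were compared as CPM per kb of exon. In knockout libraries the order was Tmem30a (25.4 ± 4.34), Atp11b (6.0 ± 0.20), Atp11a (3.62 ± 0.68), Ano6 (3.41 ± 0.93), Atp8a1 (2.52 ± 0.46), Xkr8 (1.75 ± 0.20), Atp8b4 (0.80 ± 0.10) and Atp10a (0, all ± SD). Atp11a and Ano6, and Ano6 and Atp8a1, overlapped between libraries, and the other neighbours did not. In Control libraries the order was Tmem30a (27.3 ± 5.93), Atp11b (8.62 ± 0.72), Atp8b4 (6.11 ± 0.62), Atp11a (5.54 ± 0.61), Ano6 (5.16 ± 0.45), Atp8a1 (3.25 ± 0.27), Xkr8 (1.78 ± 0.28) and Atp10a (1.63 ± 0.38). There Atp8b4 overlapped with Atp11a, Atp11a with Ano6, and Xkr8 with Atp10a. Atp8b4 thus ranked 7 of 8 in knockout and 3 of 8 in Control.

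Summed over the 14 P4-ATPase genes with a row, the level was 31.1 ± 1.00 CPM per kb in knockout and 47.8 ± 2.60 in Control (SD, n = 3 each). Knockout libraries had sums of 32.2, 30.6 and 30.4 and Control libraries sums of 46.1, 50.8 and 46.5, so the groups did not overlap. They did not overlap for 43% of single tested genes either. Atp8b4 made up 2.56 ± 0.23% of the sum in knockout and 12.8 ± 0.93% in Control, and Atp10a made up 0% in knockout and 3.40 ± 0.69% in Control. Atp11a held similar shares in both groups (11.6% in knockout and 11.6% in Control). Atp11b held 19.3% in knockout and 18.0% in Control, a small difference, with every knockout library above every Control library. The largest share was that of Atp8b2, a flippase known in human cells for phosphatidylcholine, at 33.5 ± 4.95% in knockout and 26.5 ± 0.78% in Control. The ratio of Tmem30a to the sum was 0.819 ± 0.151 in knockout and 0.572 ± 0.123 in Control, with knockout libraries at 0.726, 0.994 and 0.738 and Control libraries at 0.451, 0.568 and 0.697. These shares rest on the same difference and are a description. The sums, shares and ratio were not corrected for the trend with exon length and GC content. With that trend removed, log2 fold changes were -2.85 for Atp8b4, -0.89 for Atp9a, -0.34 for Atp11b and -0.17 for Atp11a. They were 0.06 for Atp8b2, 0.07 for Atp9b and 0.11 for Atp8a1. The lower sum is thus not a fall shared by the whole family.

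**Figure D3:**
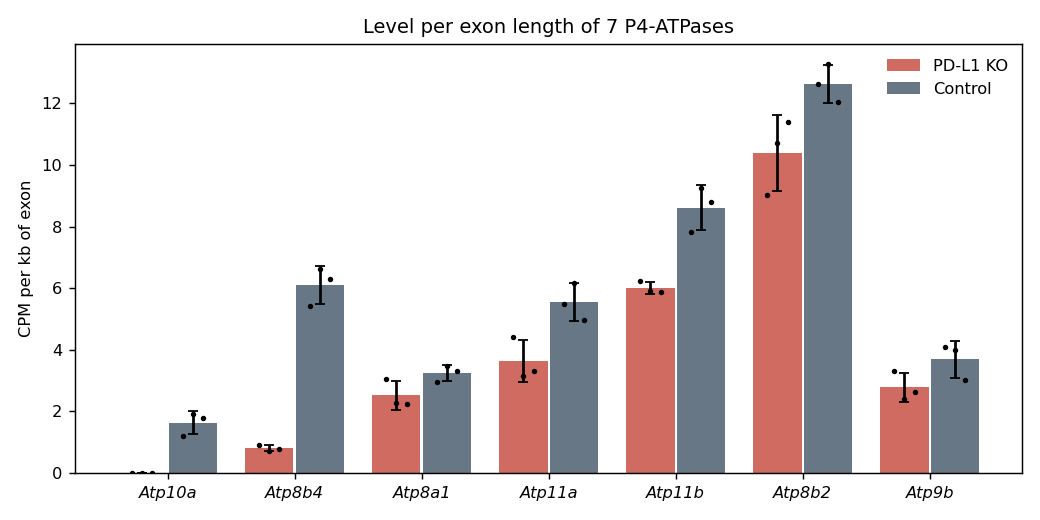
Level in CPM per kb of exon of 7 P4-ATPases, PD-L1 knockout (red) left of Control (grey) for each gene; bars are means, error bars SD and points the 3 libraries of a group. Atp10a and Atp8b4 stand at 0 and 0.80 in knockout and at 1.63 and 6.11 in Control, and Atp8b2 is the highest of those drawn in both groups (10.4 in knockout and 12.6 in Control).

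By Pearson correlation of log2 CPM over the 6 libraries, the genes most like Atp10a were Nectin3 (r = 0.999), Tafa3 (0.999), Pum2 (0.998), Tmem98 (0.997) and Creb5 (0.997). The 6 points are 2 groups of 3, so each r holds the difference between the groups, and 43 of 11445 genes had r over 0.99. Nectin3 shared the absence of reads, with 0 counts in all 3 knockout libraries and 8.76 ± 0.63 CPM in Control. Tafa3 had 4.57 ± 0.58 CPM in knockout and 56.7 ± 10.5 in Control, and Tmem98 had 0.13 ± 0.03 in knockout and 4.25 ± 0.26 in Control. Pum2 differed far less, at 311 ± 4.46 CPM in knockout and 369 ± 4.93 in Control. For Xkr8 the most alike were Rnf215 (0.974), Cpne2 (0.967), B4galnt1 (0.966), Frrs1 (0.963) and Scaf8 (0.961), and 0 genes had r over 0.99.

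The remaining lipid transporters were tested as a list of 50 genes that excludes the 8 above. This list and those that follow were chosen with earlier results of these data known. Their shares of called genes and their p-values are therefore a description and support nothing. Of 29 with enough reads to test, 2 were higher, 7 were lower and 20 were not called, at a median log2 fold change of -0.24 beside 0.01 for all tested genes; 31% of the list was called and 25.3% of all tested genes. With the trend with exon length and GC content removed, the median was 0.0127 for the list and 0.0162 for all tested genes. With that trend kept and knockout library 1 left out, the counts of the list were 4 higher and 12 lower. The lower count was 4 without knockout library 2, knockout library 3 or Control library 2, and the higher count was 1 without knockout library 2 and 0 without knockout library 3 or any 1 of the Control libraries. The other 4 tested P4-ATPases had log2 fold changes below 0 and 0 of them passed the test, though 3 had an unadjusted p under 0.05. DESeq2 and limma-voom called 0 of them. Of these, Atp8b2 was at -0.28 (SE 0.13, edgeR adjusted p = 0.138), Atp9b at -0.41 (SE 0.17, 0.104) and Atp9a at -1.08 (SE 0.46, 0.102), the last on 6 to 12 counts in knockout and 19 to 26 in Control libraries. Atp9a and Atp9b are the P4-ATPases that do not need Tmem30a. Genes with almost no reads were Atp8a2, Atp8b1, Atp8b5 and Atp10b, with at most 2 counts in any library, and the Tmem30a relatives Tmem30b and Tmem30c, with at most 8.

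All 3 tested partners of Atp9a on endosomes were lower: Dop1a (26.0 ± 6.50 CPM in knockout and 49.5 ± 6.25 in Control, log2 fold change -0.93, SE 0.19, edgeR adjusted p = 0.00861), Mon2 (64.7 ± 5.20 CPM in knockout and 91.3 ± 9.80 in Control, -0.50, SE 0.14, 0.026) and Dop1b (-1.08, SE 0.31, 0.0298), the last named after its value was seen. Their exons cover 20476, 14041 and 9890 bp. Of tested genes with 8 kb or more of exon, the class of all 3, 34.3% were lower, and 13.5% over all tested genes. The count of 3 is given as a description. In the fit with length and GC taken into account 0 of the 3 were called (Dop1a -0.29, adjusted p = 0.101; Mon2 0.04, 0.821; Dop1b -0.72, 0.0634). Mon2 missed the threshold when knockout library 2 (-0.44, adjusted p = 0.0965), knockout library 3 (-0.49, 0.0899) or Control library 2 (-0.41, 0.145) was left out, and Dop1b was called without knockout library 1 and in 0 of the other 5 repeats with a library left out.

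In the XK family, Xk, which encodes the membrane partner of the lipid transfer protein VPS13A in human red cells, had 7.17, 10.1 and 8.31 CPM in knockout libraries 1, 2 and 3 and 18.9, 20.6 and 15.9 in Control libraries 1, 2 and 3. It fell at a log2 fold change of -1.11 (SE 0.19, edgeR adjusted p = 0.0048), and at -1.16 once the length and GC trend was taken out. Of the relatives that caspases also activate, Xkr4 had 0 counts in all libraries and Xkr9 at most 3. The partners that bring Xkr8 to the plasma membrane were both abundant: basigin (Bsg) rose to 475 ± 51.4 CPM in knockout, against 356 ± 15.6 in Control (0.42, SE 0.13, adjusted p = 0.0432), and neuroplastin (Nptn) was at 156 ± 15.8 CPM in knockout and 150 ± 14.0 in Control (0.05, SE 0.14, adjusted p = 0.793). The Bsg call was lost in 11 of 16 repeats, among them those without knockout libraries 2 (adjusted p = 0.142) or 3 (0.123), without Control libraries 1 (0.0654), 2 (0.185) or 3 (0.107), and with the length and GC trend removed (0.12, 0.444).

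In the TMEM16 family, to which Ano6 belongs, Ano10 fell to 9.08 ± 3.25 CPM in knockout, against 24.5 ± 2.7 in Control (log2 fold change -1.44, SE 0.24, edgeR adjusted p = 0.00395), and it was called in all 16 repeats. Ano3 (-0.04), Ano7 (0.15) and Ano8 (-0.01) did not pass the test. Of the ABC transporters, which move lipids outward, the cholesterol and phospholipid exporter Abca1 fell to 5.57 ± 1.10 CPM in knockout, against 15.6 ± 2.88 in Control (-1.48, SE 0.22, adjusted p = 0.00281). With any 1 library left out, Abca1 lay between -1.65 and -1.36, Ano10 between -1.77 and -1.29 and Xk between -1.25 and -1.0. Its relative Abca7 fell to 29.3 ± 7.95 CPM in knockout, against 52.9 ± 7.35 in Control (-0.86, SE 0.20, adjusted p = 0.0147), but missed the threshold when knockout library 2 (-0.69, 0.0572), knockout library 3 (-0.82, 0.0607) or Control library 2 (-0.75, 0.0721) was left out. The cholesterol exporter Abcg1 rose (0.54, SE 0.16, adjusted p = 0.0369), named after its value was seen, and kept its call without knockout library 1 or 2 but not without any of the other 4. Of the scramblases of the endoplasmic reticulum, autophagosomes and other membranes (Tmem41b, Vmp1, Atg9a, Serinc1, Serinc3, Tmem63a and Tmem63b) 0 of 7 were called, at log2 fold changes between -0.28 and 0.31. In that group 0 had an unadjusted p under 0.05, and DESeq2 and limma-voom called 0. When length and GC were accounted for, 5 of the 29 genes were lower (Abca1, Abca7, Ano10, Serinc3 and Xk) and 2 higher (Abcc1 and Abcg1).

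**Figure D4:**
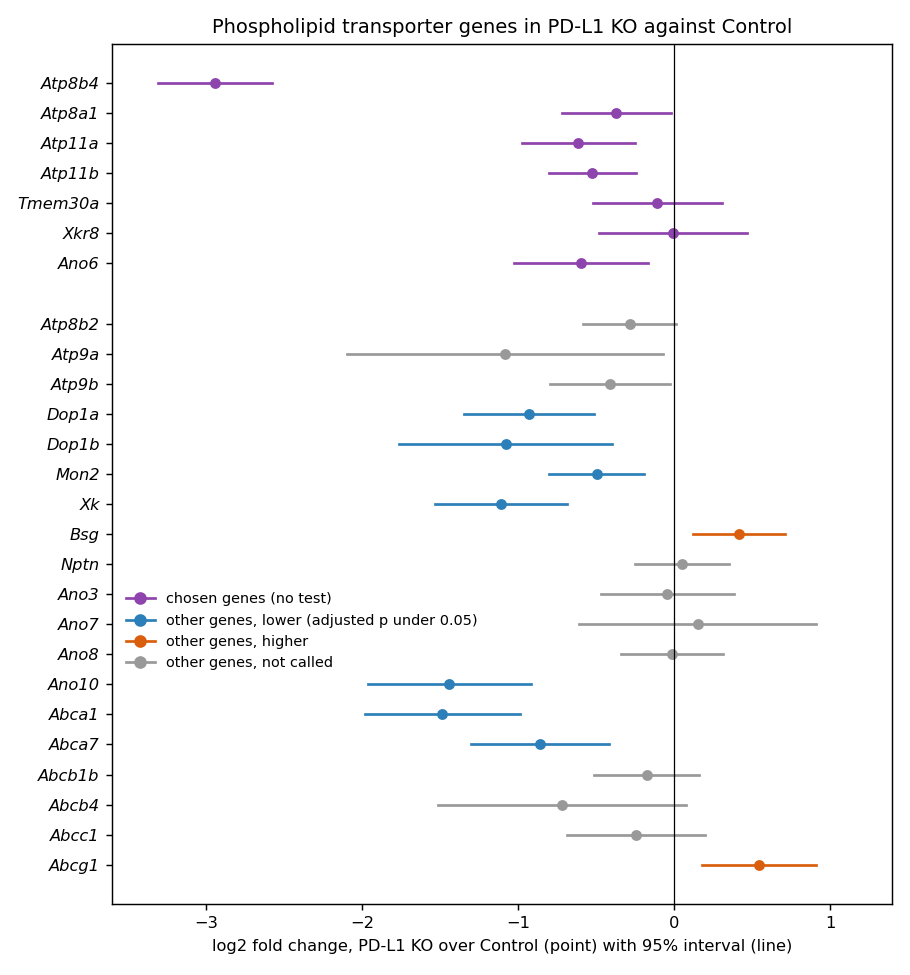
Log2 fold change of PD-L1 knockout over Control with its 95% interval for the chosen genes other than Atp10a, which has no knockout read (purple, no test), and for tested genes among the other P4-ATPases, the Atp9a partners, the XK, TMEM16 and ABC families and the Xkr8 partners (blue lower, orange higher, grey not called). Abca1 (-1.48), Ano10 (-1.44) and Xk (-1.11) lie well below 0, and Atp9a, Atp9b and Atp8b2 lie between -1.08 and -0.28.

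Genes that make, deliver and recognise phosphatidylserine formed a list of 32, of which 24 were tested: 3 were higher, 7 lower and 14 not called, at a median log2 fold change of -0.19 beside 0.01 for all tested genes. Called were 41.7% of the list and 25.3% of all tested genes. As this list was chosen with earlier results of these data known, nothing is read from that share. Without Control library 2, 0 were higher. In synthesis, Ptdss1 (69.2 ± 4.49 CPM in knockout and 57.1 ± 10.7 in Control, 0.28, SE 0.16, edgeR adjusted p = 0.198) and Ptdss2 (24.8 ± 1.78 CPM in knockout and 22.4 ± 2.29 in Control, 0.15, SE 0.14, 0.452), the phosphatidylserine synthases, did not pass the test. Pisd, which turns phosphatidylserine into phosphatidylethanolamine in mitochondria, rose (0.51, SE 0.14, adjusted p = 0.0267), named after its value was seen, and kept its call without knockout library 1 or Control library 1 but not without any of the other 4.

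Among receptors, Axl and Tyro3, kinases that bind phosphatidylserine through Gas6 or protein S, were lower. Axl had 2.19, 0.67 and 0.45 CPM in knockout libraries 1, 2 and 3 and 6.62, 9.96 and 9.23 in Control libraries 1, 2 and 3 (-3.03, SE 0.49, edgeR adjusted p = 0.00367). Knockout library 1 was the highest of the knockout libraries, and without it the Axl value was -3.97. It lay between -3.18 and -2.60 when any other library was left out. Tyro3 had 0 counts in all 3 knockout libraries and 18, 18 and 15 in Control libraries 1, 2 and 3, at least 17.6-fold lower against the floor of 3 counts over the group (adjusted p = 0.00566). The remaining kinase of the family, Mertk, had 0 counts in knockout and 0, 1 and 5 in Control libraries, and Gas6 had at most 3 counts in any library, both too few to test. The scavenger receptor Cd36 fell to 12.99 ± 2.04 CPM in knockout, against 64.0 ± 22.5 in Control (-2.30, SE 0.24, adjusted p = 0.00043). The integrin chain Itgav, which takes up cells coated with Mfge8, fell to 71.4 ± 0.68 CPM in knockout, against 123 ± 6.90 in Control (-0.79, SE 0.12, adjusted p = 0.00287). With any 1 library left out, Cd36 lay between -2.44 and -1.97 and Itgav between -0.82 and -0.74. Mfge8 itself, a bridge to phosphatidylserine, was not called (147 ± 21.0 CPM in knockout and 141 ± 16.7 in Control, 0.06, SE 0.15, adjusted p = 0.787).

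Binders of phosphatidylserine and other anionic lipids were also among the rises. Annexin A5 (Anxa5) rose to 394 ± 25.9 CPM in knockout, against 260 ± 7.15 in Control (0.60, SE 0.12, edgeR adjusted p = 0.00926), and was not called without Control library 2 (0.58, 0.0662) or after the length and GC trend was removed (0.31, 0.0895). Trem2, a myeloid lipid receptor, rose (0.66, SE 0.14, adjusted p = 0.011) and was not called without Control library 2. Stab1 (-0.62, adjusted p = 0.018) and Lrp1 (-1.07, 0.0223) were lower, with 10288 and 17717 bp of exon, and with the length and GC trend removed neither was called (Stab1 -0.15, 0.449; Lrp1 -0.34, 0.141). Stab1 was also not called without knockout library 2 or Control library 2, and Lrp1 was called only without knockout library 1 or Control library 3. Trem2, Stab1 and Lrp1 were named after their values were seen. With the trend taken out 5 of the 24 genes were lower (Axl, Cd36, Itgav and Tyro3 among them) and 2 higher (Pisd and Trem2).

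**Figure D5:**
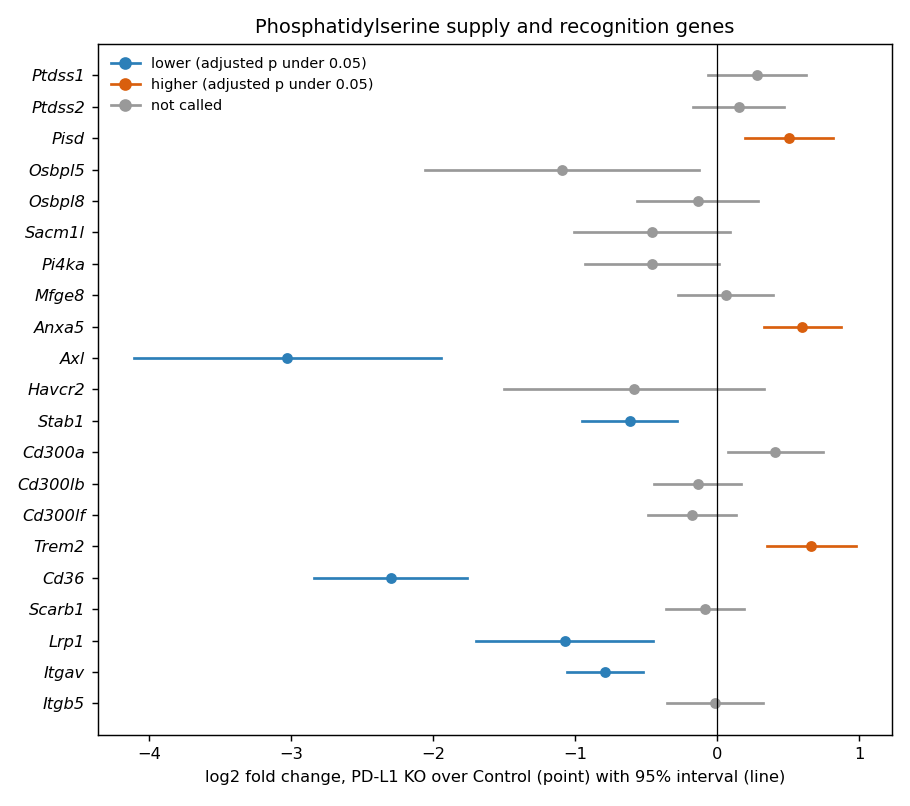
Log2 fold change of PD-L1 knockout over Control with its 95% interval for 21 tested genes of phosphatidylserine supply and recognition (blue lower, orange higher, grey not called); Tyro3, without a knockout read, is left out. Axl (-3.03) and Cd36 (-2.30) are the lowest of those drawn, and Trem2 (0.66), Anxa5 (0.60) and Pisd (0.51) are the genes called higher.

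Atp10a lies in a region of mouse chromosome 7 that holds imprinted genes. Of 11 genes of or beside that region, 2 had enough reads to test and both were lower. Over all tested genes 13.5% were lower, and 34.3% of those with 8 kb or more of exon, the class of both genes. No result about the region is read from this count. Ube3a, a ubiquitin ligase that starts 399.3 kb after Atp10a ends (59228750 to 59311536), had 85.9, 86.2 and 69.6 CPM in knockout libraries 1, 2 and 3 and 113, 126 and 125 in Control libraries 1, 2 and 3 (-0.59, SE 0.13, edgeR adjusted p = 0.0142). Herc2, another ubiquitin ligase, 2424.4 kb on the other side (56050196 to 56231800), had 86.5, 45.3 and 45.6 CPM in knockout libraries and 138, 165 and 99.3 in Control libraries (-1.18, SE 0.27, adjusted p = 0.0148). Neither gene was without reads in knockout, as Atp10a was. Both are long in exon (20626 and 16175 bp); with the length and GC trend removed Ube3a was at -0.08 (adjusted p = 0.58) and Herc2 at -0.56 (0.0405). Without Control library 2 neither was called (adjusted p = 0.0754 for Ube3a and 0.0706 for Herc2), nor without knockout library 3 (0.0687 for Ube3a and 0.0589 for Herc2). Herc2 was also not called without knockout library 2 (0.0614). The other 9, among them Snrpn, Ndn, Magel2 and Oca2, had too few reads to test.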

How the data were processed

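Libraries of 3 PD-L1 knockout and 3 Control samples of DC2.4 were analysed; RNA came from TRIzol lysates and the library kit was KAPA Hyper Prep, per the labels' protocols. Tools listed in the submitters' processing notes are Trimmomatic 0.39, STAR 2.7.5c, StringTie 2.1.7 and build mm10, with no role for each. The authors deposited unscaled read counts, 1 whole number for each gene and library. Not given in the sources used here: how reads were counted, on which annotation and with which strand setting, so reads of antisense partners cannot be separated. Columns were matched to samples by name.

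Of 31205 genes, 11453 passed edgeR's filterByExpr. After TMM scaling, knockout was compared with Control with the quasi-likelihood test of edgeR 4.0.16 in R 4.3.3, two-sided (alternatives used DESeq2 1.42.0 and limma 3.58.1), with Benjamini-Hochberg adjustment over all tested genes and a threshold of 0.05. SE and 95% intervals come from that fit. The members and gene lists were chosen with earlier results of these data known. All members were named, with up to 6 called genes per list whose groups did not overlap and that had the lowest adjusted p, and a fixed set named whatever its values. Other genes of a list, such as Atp8b2 and Ano3, were named after their values were seen, to complete their family. The 5 genes with the highest Pearson r with Atp10a and with Xkr8 were also named. Some genes counted in the lists are not reported here by name. Exon lengths, GC content and positions came from GENCODE vM21, with 99.7% of tested genes matched; the trend with length and GC was removed by loess (span 0.3). No pair of libraries within a group agreed within sampling noise (chi-square per degree of freedom 15.2 to 50.4). On simulated counts over 11305 genes, 99 genes were changed by a log2 change of 1 and 97 by 2, in both directions. The test called 59.6% and 93.8% of them, and 7.98% of its calls were unchanged genes. The simulation held far fewer changed genes than the 2900 called here and no trend with exon length, so these rates may not hold for these data.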

Additional observations from a re-analysis of the deposited data

How the results depend on the processing

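Over 10 other settings, Atp8b4 (-3.09 to -2.85) and Xkr8 (-0.16 to 0.04) stayed within the spread between libraries, and Atp11b was at -0.68 with total counts alone. With total counts alone 671 genes were higher and 2216 lower, and in the transporter list 0 were higher and 11 lower. In that list 1 was higher under upper quartile scaling, with no filter on low counts, with the replicate block (1), and with the length and GC trend removed plus the block (1). With that trend removed, 3 members were lower (2 with the block) and 1 of the Atp10a neighbours (1 with the block, and 1 with no filter); Mon2 reversed to 0.0387, and to 0.0378 with the block, and Atp9b, not called, to 0.07 and 0.073. Nptn and Mfge8, not called, reversed to -0.103 and -0.0843 with total counts alone, and with 1 library left out Nptn ranged from -0.0137 to 0.13 and Mfge8 from -0.0373 to 0.167 (below 0 without knockout library 1, and at -0.00815 without Control library 3). Libraries with the same number had correlations of deviations of 0.148, -0.049 and 0.346. For knockout libraries 1 and 3 the Control library of the same number gave the highest correlation, and for knockout library 2 the lowest. The labels do not say whether the numbers pair libraries, and pairing was not tested. The replicate block alone gave 1495 higher and 1733 lower genes, changed no member's call, and Bsg lost its call (adjusted p = 0.0582). Leaving out 1 library gave 222 to 2346 higher and 525 to 2628 lower genes in all, 2 to 6 lower members, 0 to 4 higher and 4 to 12 lower transporters, 0 to 3 higher supply and recognition genes, and 0 to 2 lower neighbours. Higher and lower totals were 2346 and 2628 without knockout library 1, 401 and 656 without knockout library 2, 526 and 667 without knockout library 3, 222 and 525 without Control library 2, and 717 and 1124 without Control library 3. The Atp10a bound ranged from -7.37 (without Control library 1) to -6.41 (without knockout library 3, where the floor rests on fewer counts). Of 351 repeats of 22 named list genes, 308 kept direction and call, 30 lost the call, 4 gained it and 9 reversed. Why single libraries move the counts was not tested.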
